A study of Mus musculus and Meriones unguiculatus with 4 samples.

Results

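DNA replication genes encode the machinery that copies the genome, and 45 of them were followed here in tooth germs of mouse and gerbil, in tissue cut from around the enamel knot. The 45 were given as a list of symbols, and a member was used where its symbol, ignoring case, occurred once in the table of each species. This held for 35 of the 45, out of 13322 symbols matched in the same way. All 35 also passed the filter on low values (a mean level of 1 or more), which 10329 genes passed in all. The mouse samples were wild-type embryos at embryonic day 13 and the gerbil samples wild-type embryos of Meriones unguiculatus at embryonic day 15, with 2 libraries per species. Tooth germs were dissected from the mandible, fixed, cryosectioned and cut by laser microdissection around the knot, and the labels call the material epithelial cells. How many animals went into a library is not given. The libraries carry the endings PEK and SEK in mouse and E21 and E23 in gerbil, which the labels do not explain. Should the endings mark stages or parts of the tooth, a pair of libraries is not a pair of replicates, and each SD and SE below holds that difference too.

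The origin recognition complex marks the sites where copying can start, and Cdc6 and Cdt1 load the ring of Mcm2 to Mcm7 there. Cdc45 and the GINS complex turn the ring into a moving helicase, polymerases with primase make the new strands, and the Pcna clamp, set on DNA by the Rfc clamp loader, keeps them attached. Most of these genes are transcribed in waves around S phase under E2F and retinoblastoma family control, and in the tooth the enamel knot is known as a signalling centre whose cells leave the cell cycle while the epithelium and mesenchyme around it divide.

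Levels are the deposited values scaled so that the matched genes of each library sum to 1000000, which makes them shares of that sum and, being made from FPKM in mouse and TPM in gerbil, per transcript length. The authors normalized the tables separately. Levels are printed as rescaled, while each log2 difference, on the log2(level + 1) scale, has a trend along transcript length removed unless said otherwise, so a ratio of printed levels can differ from the difference beside it. Before that step the median gerbil minus mouse difference ran from -1.16 in the shortest 1033 genes, with 4 members, to 2.04 in the longest 1033, with 1 member. The word called is used where both libraries of 1 species exceeded both of the other by 2-fold or more. No p-value is given, since an exact permutation of 2 libraries against 2 cannot give a two-sided p below 0.333. Depth is unknown for mouse and was not analysed here for gerbil.

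The epithelial label was checked with marker lists. All 7 epithelial markers were present in every library, with summed levels of 5428 and 7390 in mouse PEK and SEK and 9170 and 7862 in gerbil E21 and E23. The 11 enamel knot markers summed to 5160 and 2748 in mouse PEK and SEK and to 1825 and 1746 in gerbil, with Fgf20 listed at 0 in E23. Markers of mesenchyme (7 of 7 matched) summed to 618.3 and 590.3 in mouse and 3241 and 2810 in gerbil, where Tnc alone gave 1880 and 500.3. Markers of muscle (6 of 7) summed to 117.4 and 609.1 in mouse and 30.9 and 49.0 in gerbil with Myod1 at 0 in both gerbil libraries and Mylpf at 0 in E21, and those of endothelium (5 of 6) to 8.52, 20.1, 7.69 and 108.3 with Emcn at 0 in E21. Blood and immune markers (3 of 6) stayed at 21.1 or below. Stress and handling genes (7 of 10) summed to 689.6 and 568.8 in mouse and to 44.8 and 59.8 in gerbil, with Fosb at 0 in SEK. The part of these differences in the results below was not tested, and in bulk tissue fewer cells of a type and less RNA per cell cannot be told apart.

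The promoters of the members are shown first, since these genes are known as E2F targets. Promoters were taken from RefSeq (GRCm38.p6), from 250 bases before to 50 bases after each start, and 46 promoters matched 38 of the 45 genes. Promoters were searched on both strands for the E2F-type letters TTTCGCGC or TTTGGCGC, and separately for CCAAT, the letters bound by NF-Y, a factor common at cell cycle promoters. Overlapping matches to both E2F-type strings on opposite strands occur. The stretches below are the 160 bases right before the start, 5′ to 3′ on the gene's own strand, with the matches in capitals (TTTCGCGC, TTTGGCGC, CCAAT or their reverse complements). They show 4 members whose matches sit before the start on different strands and spacings, Rfc3 with a match next to the start, and Pcna and Rrm2, both without an E2F-type match and with a CCAAT match. The start is that of RefSeq, and the measured mouse loci of Orc1, Rfc3, Pcna and Rrm2 begin before it, inside the stretch shown. The E2F-type matches of Orc1 and Rfc3 and the CCAAT match of Pcna therefore lie within the measured locus. The stretches lie at chr8:75109349-75109508 (plus strand, Mcm5), chr1:128359706-128359865 (minus, Mcm6), chr4:108579294-108579453 (plus, Orc1), chrX:93632156-93632315 (minus, Pola1), chr5:151651209-151651368 (minus, Rfc3), chr2:132253181-132253340 (minus, Pcna) and chr12:24708094-24708253 (plus, Rrm2).
Mcm5: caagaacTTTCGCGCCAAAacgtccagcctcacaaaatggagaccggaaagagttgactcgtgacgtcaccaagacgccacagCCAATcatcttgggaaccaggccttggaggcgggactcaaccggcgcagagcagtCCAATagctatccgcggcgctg
Mcm6: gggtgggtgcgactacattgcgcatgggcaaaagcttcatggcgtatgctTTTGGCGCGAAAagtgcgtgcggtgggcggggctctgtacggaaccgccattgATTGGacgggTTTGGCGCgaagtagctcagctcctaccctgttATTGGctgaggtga
Orc1: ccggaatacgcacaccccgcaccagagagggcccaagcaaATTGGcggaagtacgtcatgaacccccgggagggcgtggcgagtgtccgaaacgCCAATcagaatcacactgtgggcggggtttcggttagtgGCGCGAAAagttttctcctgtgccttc
Pola1: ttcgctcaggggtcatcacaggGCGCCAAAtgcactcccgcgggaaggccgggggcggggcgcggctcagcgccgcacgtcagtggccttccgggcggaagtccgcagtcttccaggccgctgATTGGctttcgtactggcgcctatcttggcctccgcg
Rfc3: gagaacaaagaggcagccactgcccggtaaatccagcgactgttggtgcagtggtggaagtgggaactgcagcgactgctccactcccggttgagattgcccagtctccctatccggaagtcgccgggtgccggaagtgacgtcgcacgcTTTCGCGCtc
Pcna: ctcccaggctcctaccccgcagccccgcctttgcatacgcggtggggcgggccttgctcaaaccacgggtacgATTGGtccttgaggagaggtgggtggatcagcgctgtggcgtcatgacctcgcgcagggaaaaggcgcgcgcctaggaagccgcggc
Rrm2: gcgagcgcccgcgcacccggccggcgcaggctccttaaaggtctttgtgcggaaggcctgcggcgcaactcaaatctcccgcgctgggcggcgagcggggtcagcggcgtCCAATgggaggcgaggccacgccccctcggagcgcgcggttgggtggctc

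An E2F-type match was present in 10 of the 46 member promoters (21.7%), against 267 of all 32851 promoters (0.813%). The 10 genes were the helicase subunits Mcm3, Mcm5, Mcm6 and Mcm7, the origin and licensing genes Orc1 and Cdt1, the polymerase genes Pola1 and Pole2, the clamp loader gene Rfc3 and the ligase gene Lig1. CCAAT was present in 25 of the 46 (54.3%), covering 23 genes, against 37.4% of all promoters. A match is a description of the letters in this window, and no match says nothing about a factor. The 7 measured genes with an E2F-type match had a median difference of 0.23 between mouse SEK and PEK, -0.26 between gerbil E23 and E21, and 0.22 between the species. The 23 measured genes with a promoter but no such match had 0.59, -0.17 and 0.35, so the median differences of both sets had the same sign in each comparison.

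**Figure D1:**
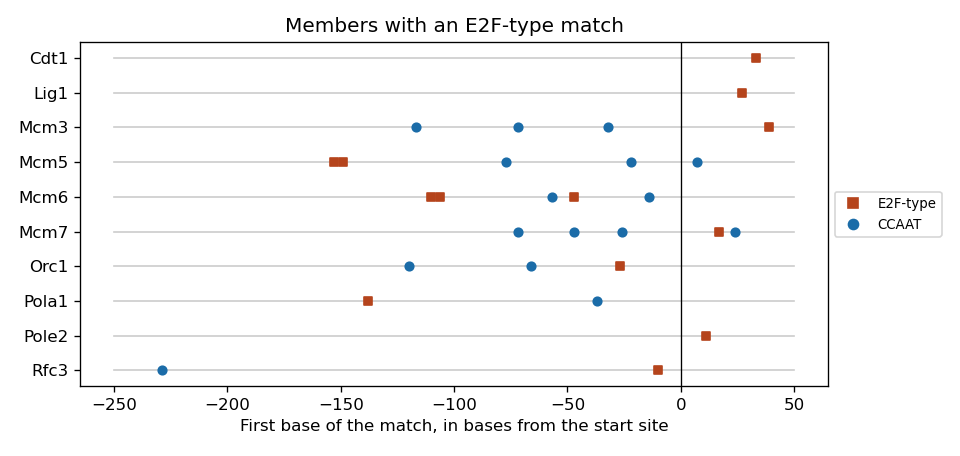
Position of the first base of each match, in bases from the RefSeq start site (vertical line), in the promoters of the 10 listed genes with an E2F-type match; squares are E2F-type and circles are CCAAT matches, and grey lines span the searched window of 250 bases before to 50 bases after the start. Mcm5 and Mcm6 each hold a pair of overlapping E2F-type matches before the start, while the matches of Cdt1, Lig1, Mcm3, Mcm7 and Pole2 lie after it.

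The members were expressed in all 4 libraries, above the typical gene. Their median level was 72.3 in mouse PEK and 104.1 in SEK, and 109.9 in gerbil E21 and 102.0 in E23, against medians over all 10329 genes of 28.6, 21.5, 47.8 and 45. The 35 levels summed to 3312, 4942, 5067 and 4425 of the 1000000 in the same order. The sum in the SEK library therefore lay between the 2 gerbil sums, and PEK held the lowest. In mouse the highest mean levels were those of Rfc2, Tyms and Rpa3, and in gerbil those of Pcna, Mcm7 and Rrm1. Orc1 was the lowest member in both mouse libraries, at 10.9 and 7.48, and Cdc6 in both gerbil libraries, at 42.1 and 31.3.

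**Figure D2:**
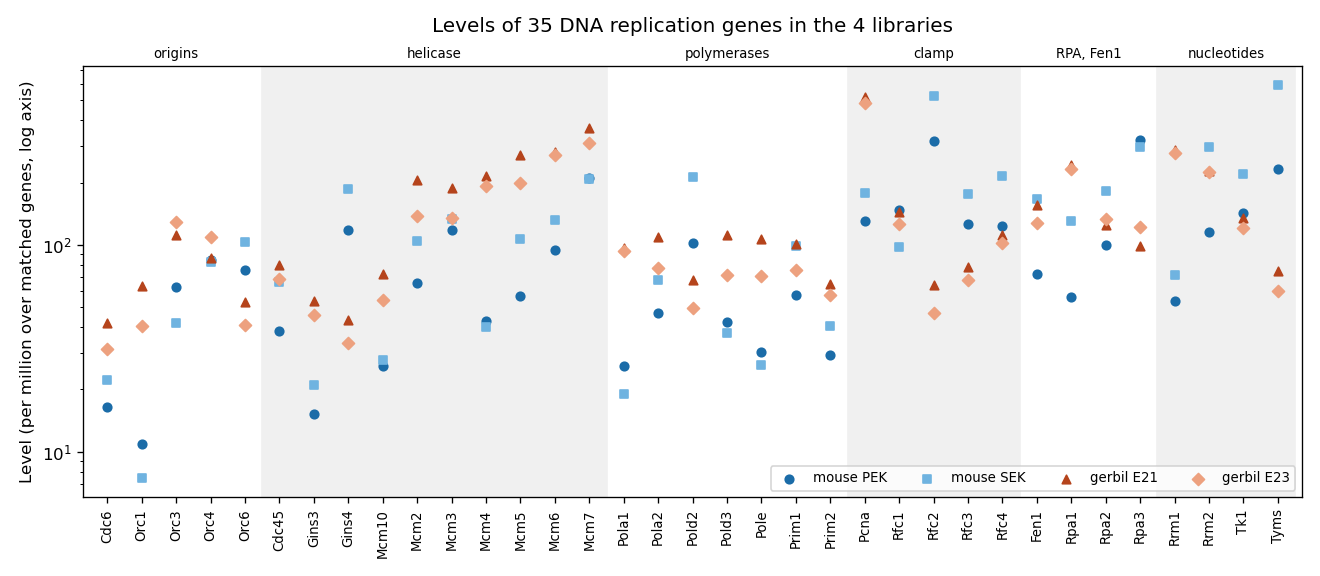
Level of each measured member in each library, on a log axis (each library sums to 1000000 over matched genes), grouped by role; circles and squares are the mouse libraries PEK and SEK, triangles and diamonds the gerbil libraries E21 and E23. Pcna stands highest in both gerbil libraries (522.2 and 488.6), and Tyms in mouse SEK (591.6) is the highest value of all.

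Between the species, the replication genes did not move as a block. On the corrected scale 3 members were called higher in gerbil (Pcna, Orc1 and Mcm4), 3 were called higher in mouse (Rfc2, Tyms and Rfc1) and 29 met neither criterion. Each count is 8.57% of the members, below the background of 13.5% of all measured genes called higher in gerbil and 15.0% called higher in mouse. The members' differences ran from -4.29 (Rfc2) to 2.53 (Pcna), with a median of 0.28 against -0.01 over all genes. Without the length correction 8 members were called higher in gerbil against a background of 29.4%, 4 were called higher in mouse against 12.2%, and the median was 0.68 beside 0.61 for all genes. Without the SEK library 7 members were called higher in gerbil, against 17.5% of all genes, and the median was 0.58. Without PEK the median was -0.06, so its sign rested on PEK.

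**Figure D3:**
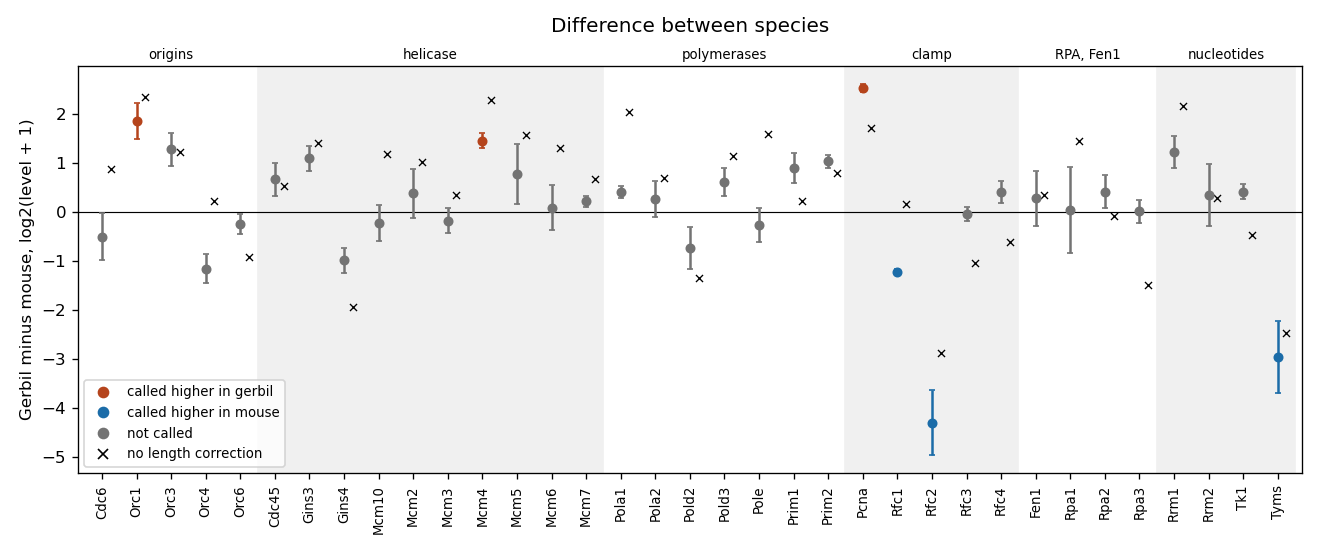
Difference between the species for each measured member, mean gerbil minus mean mouse on the log2(level + 1) scale after length correction, with bars of 1 SE from 2 libraries per species; red points are called higher in gerbil, blue points higher in mouse, and crosses give the difference without length correction. Rfc2 (-4.29) and Tyms (-2.95) stand below all other members. Rfc1 is the only called member that changes sign without the correction, while members not called, such as Pole and Rpa3, change sign too.

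Pcna encodes the sliding clamp that holds polymerases on DNA. Its locus lies at chr2:132249162-132253314 (GRCm38, ENSMUSG00000027342), and its level was 130.0 in PEK, 178.4 in SEK, 522.2 in E21 and 488.6 in E23. Both gerbil libraries were above both mouse libraries, with means of 505.4 ± 23.7 and 154.2 ± 34.2 (SD, n = 2 each), and the corrected difference was 2.53 ± 0.08 (SE), a 5.78-fold difference. Without length correction it was 1.72. Among the alternatives run, the call ended with the deposited values used as they are (-0.16), where the median over all genes was -1.10. The reference also names the mouse copies Pcna-ps1 and Pcna-ps2, and the mouse table has a row of its own for Pcna-ps2, at a level of 45.3 in PEK and 60.1 in SEK. Reads of the gene and the copy may have been shared between those rows, and Pcna-ps1 has no row, so the mouse level of Pcna is uncertain. The part of shared reads in the difference was not tested.

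The 4 measured clamp loader genes were called higher in mouse or not called. Rfc2, a small subunit of the clamp loader at chr5:134581366-134601805 (ENSMUSG00000023104), was at 319.4 in PEK, 526.9 in SEK, 64.1 in E21 and 46.9 in E23. The mouse levels were all above the gerbil levels, and the difference of -4.29 ± 0.66 (-2.88 without length correction) was the largest in size among the members. It was called under every alternative run, at -4.94 without PEK and -3.67 without SEK. Lat2, a coding gene on the other strand, overlaps the locus, and strand use in the authors' counting is not given. Rfc1, the large subunit (chr5:65261850-65335670, ENSMUSG00000029191), was at 147.3, 97.4, 144.8 and 126.4 in PEK, SEK, E21 and E23. These levels overlap between the species, so its call of -1.22 ± 0.07 came from the length correction and the difference was 0.17 without it. The call also ended without the filter on low values (-0.91).

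Rfc3 was at 126.7 and 177.1 in mouse and 78.6 and 67.6 in gerbil, with a corrected difference of -0.04 ± 0.14. Rfc4 was at 123.0 and 215.8 in mouse and 112.0 and 102.0 in gerbil, with 0.41 ± 0.23. Both are small subunits of the loader and neither was called, although the rescaled levels of both were higher in both mouse libraries. Eif4a2 overlaps Rfc4 on the other strand. Rfc5, the remaining small subunit, was not compared, because the mouse table splits it over 2 loci, at 3.43 and 3.56 and at 72.2 and 165.7 in PEK and SEK. In gerbil it was at 109.0 and 98.5.

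Among genes of nucleotide supply, Tyms, the thymidylate synthase gene (chr5:30058202-30073636, ENSMUSG00000025747), was at 232.9 in PEK, 591.6 in SEK, 74.8 in E21 and 59.6 in E23. The libraries did not overlap, and the difference of -2.95 ± 0.73, a 7.74-fold difference, was called under every alternative run. Its size moved with the mouse library used, to -3.74 without PEK and -2.22 without SEK. The mouse libraries themselves differed widely, with a mean of 412.2 ± 254.0. The reference also names a mouse copy, Tyms-ps, with no row of its own in the table, so its reads may count for Tyms. Rrm1, the large subunit of ribonucleotide reductase, stood on the opposite side, at 53.6, 71.3, 286.8 and 277.8. Its difference of 1.23 ± 0.33 lay just outside the call, with the nearest libraries of the species 0.89 apart where 1 was needed, and without length correction it was called for gerbil (2.17), as it was without SEK (1.56) and without the filter on low values (1.58).

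Rrm2, the small and cell cycle regulated subunit, was at 115.0, 298.5, 227.2 and 225.1, so both gerbil libraries fell between the mouse ones (0.35 ± 0.63). Tk1, the thymidine kinase of the salvage route, was at 142.5, 221.1, 135.1 and 121.0 (0.42 ± 0.16) and overlaps Gm20708 and Afmid on the other strand. Neither was called. Dut, which encodes the dUTPase, had 2 mouse loci, at 345.2 and 509.5 and at 0 and 0, and 141.2 and 175.9 in gerbil, and was not compared.

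The helicase group had 1 call among 10 measured members. Mcm4, a subunit of the Mcm2 to Mcm7 ring (chr16:15623897-15637400, ENSMUSG00000022673), was at 42.8, 40.1, 216.4 and 193.4 in PEK, SEK, E21 and E23. Both gerbil libraries were far above both mouse libraries, and the difference was 1.46 ± 0.15 (2.28 without length correction). It is the called member nearest to the threshold on the gerbil side, with the nearest libraries 1.26 apart. Its call ended when a GC content trend was also removed (1.20), with the median protein-coding transcript length in place of the exon union (1.10), and with the deposited values (0.39).

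The other 5 ring genes were not called. Mcm7 was at 211.9, 208.0, 366.7 and 310.0 and was the highest ring subunit in each library (0.22 ± 0.11). Cops6 and Ap4m1 overlap it on the other strand. Mcm5 was at 56.5, 106.8, 272.6 and 198.8 (0.78 ± 0.62) and Mcm6 at 94.9, 132.0, 281.7 and 271.9 (0.09 ± 0.46). Mcm2 was at 65.5, 104.1, 207.3 and 137.9 (0.39 ± 0.50) and Mcm3 at 117.8, 133.1, 188.7 and 134.6 (-0.17 ± 0.25). For all 6 ring genes both gerbil levels were above both mouse levels as rescaled, while after length correction Mcm4 was the 1 called member of the ring. Mcm6 was called higher in gerbil without length correction, and Mcm5 was called without the SEK library (1.39).

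Of the factors that activate the ring, Gins3 was at 15.3, 21.1, 53.8 and 45.7 (1.10 ± 0.25) and Gins4 at 118.0, 186.8, 43.4 and 33.7 (-0.98 ± 0.25). By level Gins4 was the higher subunit in mouse and Gins3 in gerbil. Neither was called, and both were called without length correction (1.42 and -1.93). Gins3 was also called higher in gerbil without the SEK library (1.34) and with the median protein-coding transcript length (1.80). Cdc45, the partner of GINS in the helicase, was at 38.5, 66.1, 79.6 and 68.2 (0.67 ± 0.34), with Ufd1 on the other strand. Mcm10, an initiation factor that is not part of the ring, was at 25.9, 27.8, 72.0 and 54.4 (-0.22 ± 0.36). Gins1 was found in mouse alone, at 56.7 and 98.0, and Gins2 in gerbil alone, at 70.9 and 58.9.

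Among origin genes, Orc1, the ATPase subunit of origin recognition (chr4:108579423-108614833, ENSMUSG00000028587), was at 10.9, 7.48, 63.0 and 40.6. Both gerbil libraries were above both mouse libraries, and the difference was 1.86 ± 0.36, a 3.62-fold difference (2.36 without length correction). Its call ended when a GC content trend was also removed (1.49) and with the deposited values (0.50). Orc3 was at 62.3, 42.1, 112.2 and 129.4 (1.28 ± 0.34), which was called higher in gerbil without PEK (1.53) or without E21 (1.43). Orc4 was at 84.3, 82.4, 86.2 and 109.5 (-1.15 ± 0.29). Orc4 is the member just outside the call on the mouse side, with the nearest libraries 0.74 apart against 1.12 for Rfc1 just inside it. It was called without PEK (-1.32), without E23 (-1.34) and with a GC content trend also removed (-1.75), while its difference was 0.22 without length correction. Acvr2a and Mbd5 overlap it on the other strand.

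Orc6 was at 75.5, 103.2, 52.9 and 40.9 (-0.24 ± 0.20), and Vps35 overlaps it on the other strand. Cdc6, which helps to load the ring, was at 16.5, 22.2, 42.1 and 31.3 (-0.50 ± 0.48). The sign of Cdc6 turned without length correction (0.89), and neither gene was called. Orc2 and Orc5 were found in mouse alone, at 32.4 and 29.9 and at 32.9 and 28.4. Cdt1, the other loading factor, was found in gerbil alone, at 55.9 and 36.3.

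None of the 7 measured polymerase and primase genes was called. Pola1, the catalytic subunit of polymerase alpha, was at 25.9, 19.0, 97.1 and 93.7 (0.41 ± 0.12, and 2.05 without length correction, where it was called). Pole, the catalytic subunit of the leading strand polymerase, was at 30.3, 26.2, 106.8 and 70.6 (-0.26 ± 0.35). Its direction turned and it was called higher in gerbil without the correction (1.59) and also with the median protein-coding transcript length in place of the exon union (2.15). Their exon lengths of 5346 and 7423 bases are the longest among the members, and the call of each depended on the length correction. Pola2, the accessory subunit of polymerase alpha, was at 47.0, 67.5, 109.9 and 77.7 (0.27 ± 0.37). The primase genes Prim1, at 57.6, 98.4, 101.6 and 75.6 (0.90 ± 0.30), and Prim2, at 29.3, 40.7, 64.5 and 57.2 (1.04 ± 0.13), were higher in both gerbil libraries on the corrected scale without a call. Prim2 was called without SEK (1.18).

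The accessory subunits of polymerase delta stood on opposite sides. Pold2 was at 102.4, 213.1, 67.9 and 49.4 (-0.73 ± 0.43) and Pold3 at 42.3, 37.7, 111.7 and 71.4 (0.62 ± 0.29). The catalytic subunit gene Pold1 was found in mouse alone, at 75.9 and 76.4, and Pole2, a subunit of polymerase epsilon, was in neither table under that symbol.

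The 4 measured genes of single-strand binding and Okazaki fragment joining had corrected differences from 0.02 to 0.42, and none was called. The range depended on the mouse library and was -0.88 to 0.30 without PEK and -0.19 to 0.97 without SEK. Without length correction it was -1.49 to 1.46. Rpa3, the smallest subunit of replication protein A, which coats unwound DNA, was at 321.4, 299.1, 98.7 and 121.5 (0.02 ± 0.23). Its levels were higher in both mouse libraries, and it was called so without length correction (-1.49). Rpa1, the large subunit, was at 56.3, 130.2, 243.5 and 232.3 (0.04 ± 0.88) and Rpa2 at 99.7, 182.6, 124.6 and 133.1 (0.42 ± 0.33). Fen1, the flap endonuclease that trims Okazaki fragments, was at 72.3, 166.0, 156.9 and 127.5 (0.28 ± 0.56), with Tmem258 on the other strand. Rpa1 and Fen1 have large SEs, and SEK was above PEK by 1.76 and 1.10 for them. Lig1, the ligase that joins the fragments, was found in mouse alone, at 88.6 and 99.3.

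Subunits of one complex are needed together, and their levels were closer to each other in gerbil than in mouse for several complexes. In the Mcm2 to Mcm7 ring the highest subunit was 4.95 times the lowest in PEK and 5.18 times in SEK, against 1.94 in E21 and 2.30 in E23. After length correction the ratios were 4.89, 4.06, 2.02 and 2.33. Mcm4 was the lowest ring subunit in both mouse libraries and Mcm3 in both gerbil libraries. For the 4 measured origin recognition subunits the ratios were 7.76, 13.8, 2.12 and 3.19, and 8.33, 15.2, 2.13 and 3.79 after correction, with Orc1 lowest in both mouse libraries and in E23. For Rrm1 and Rrm2 they were 2.14, 4.19, 1.26 and 1.23, and for Gins3 and Gins4 7.72, 8.85, 1.24 and 1.36. In these 4 complexes both mouse ratios were above both gerbil ratios on both scales. Whether the spread was particular to complexes was not tested, since the 35 members include the subunits of these complexes. The 35 members as a whole were also proportionally farther apart in mouse. Their levels ran from 10.9 to 321.4 in PEK and 7.48 to 591.6 in SEK. In gerbil they ran from 42.1 to 522.2 in E21 and 31.3 to 488.6 in E23. Ratios among unrelated genes were not computed.

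In the other 3 complexes the order depended on the scale or was not seen. For the 4 clamp loader subunits the ratios were 2.60, 5.41, 2.26 and 2.69 and, after correction, 4.33, 9.42, 4.16 and 4.79, and Rfc2 was the highest subunit in both mouse libraries and the lowest in both gerbil libraries. For polymerase alpha with primase they were 2.22, 5.19, 1.70 and 1.64, but 1.79, 2.34, 2.38 and 1.78 after correction. For replication protein A the levels gave 5.71, 2.30, 2.47 and 1.91, which overlap, and after correction the ratios of 2.91 and 1.80 in mouse were above those of 1.26 and 1.39 in gerbil. The ratios are descriptions of single libraries, and the mouse rows are assembled loci while the gerbil rows are genes, a difference whose part in the spread was not tested.

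**Figure D4:**
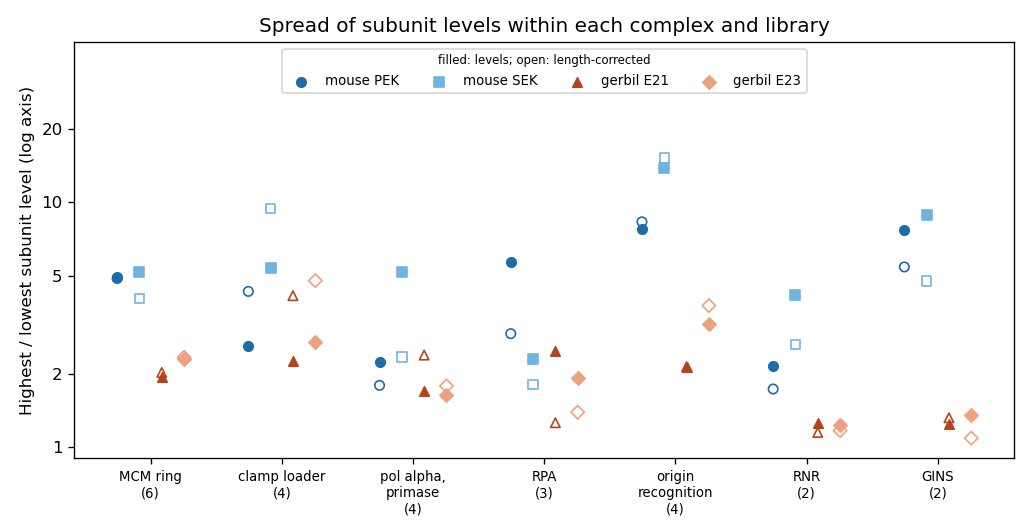
Ratio of the highest to the lowest subunit level within each complex (log axis), 1 symbol per library, with the number of measured subunits in brackets; filled symbols are levels and open symbols are length-corrected, and RNR is ribonucleotide reductase. The mouse ratios lie above the gerbil ratios on both scales for the MCM ring, origin recognition, RNR and GINS.

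The order of the 35 members by level was nearly the same in the libraries of a species and weakly shared across species. Spearman's rho across the 35 genes was 0.91 between PEK and SEK and 0.97 between E21 and E23, and lay between 0.23 and 0.28 for the pairs of a mouse with a gerbil library (0.41 to 0.45 after length correction). These values are a description over genes that share libraries and tables, and the unit and gene model differ between the species.

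Within mouse, most replication genes were higher in SEK than in PEK. This compares 1 library with 1 library and has no replicate check. On the corrected scale 30 of the 35 members (85.7%) were higher in SEK, against a background of 47.9% of all genes, and the median difference was 0.43 against -0.03. At least 2-fold higher in SEK were 6 members, against a background of 7.46% of all genes, and 0 members were at least 2-fold higher in PEK, against 8.50%. Without length correction 25 of 35 were higher in SEK, against 39.0%. Over the alternatives the count ran from 25 to 31.

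The 6 members past 2-fold were Rpa1 (1.76), Tyms (1.44), Rfc2 (1.28), Rrm2 (1.26), Mcm5 (1.21) and Fen1 (1.10), which belong to 4 of the 6 roles. By role, the median was 0.96 for nucleotide supply, 0.87 for single-strand binding with Fen1, 0.56 for the helicase, 0.40 for polymerases and primase, 0.10 for the clamp group and 0.09 for origin genes. All 10 helicase genes and all 4 nucleotide genes were higher in SEK, though Mcm7 by just 0.01. Without length correction Rfc2 (0.72) and Mcm5 (0.91) were less than 2-fold higher in SEK, and Pold2 (1.05) was past 2-fold. Higher in SEK were then 8 of the 10 helicase genes, 4 of the 7 polymerase and primase genes and all 4 nucleotide genes. The medians were then 0.99 for nucleotide supply, 1.03 for single-strand binding with Fen1, 0.46 for the helicase, 0.46 for polymerases and primase, 0.48 for the clamp group and -0.03 for origin genes. The members higher in PEK were Orc3 (-0.64), Rpa3 (-0.46), Orc1 (-0.44), Pold3 (-0.09) and Rfc1 (-0.08). In the same pair of libraries the 11 enamel knot markers had a median of -1.37, with 7 at least 2-fold higher in PEK, and the muscle markers summed to 117.4 in PEK and 609.1 in SEK. All 7 dental epithelium markers were higher in SEK, with a median of 0.41. Without length correction this was 4 of 7 with a median of 0.06. Mesenchyme markers were split, with 4 of 7 higher in SEK (median 0.04), or 3 of 7 (median -0.70) without length correction. All 5 endothelial markers were higher in SEK (median 1.07), at low levels. The part of these differences in the replication genes was not tested.

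Within gerbil, most replication genes were lower in E23 than in E21, by small amounts. Again this is 1 library against 1. Of the 35 members 28 (80.0%) were lower in E23, against a background of 51.1%, and the median was -0.22 against -0.01. No member was 2-fold apart in either direction, where 6.05% of all genes were at least 2-fold higher in E23 and 3.60% at least 2-fold higher in E21. Without length correction 31 of 35 were lower in E23, against 54.9%. Over the alternatives the count ran from 25 to 32. The 25 were out of the 34 members left by a minimum mean level of 10 in each species.

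All 7 polymerase and primase genes (median -0.45) and all 5 clamp genes (-0.17) were lower in E23, as were 9 of the 10 helicase genes (-0.25). Origin genes were split, from Orc1 at -0.58 to Orc4 at 0.39, with Orc3 at 0.25. Single-strand binding genes had a median of 0.02 and nucleotide genes of -0.10. The enamel knot markers had a median of -0.60 in the same comparison, the mesenchyme markers 0.77 with 2 of 7 lower in E23 (Col3a1 1.04, Tnc -1.78), and the endothelial markers summed to 7.69 in E21 and 108.3 in E23. Their part in the replication genes was not tested.

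**Figure D5:**
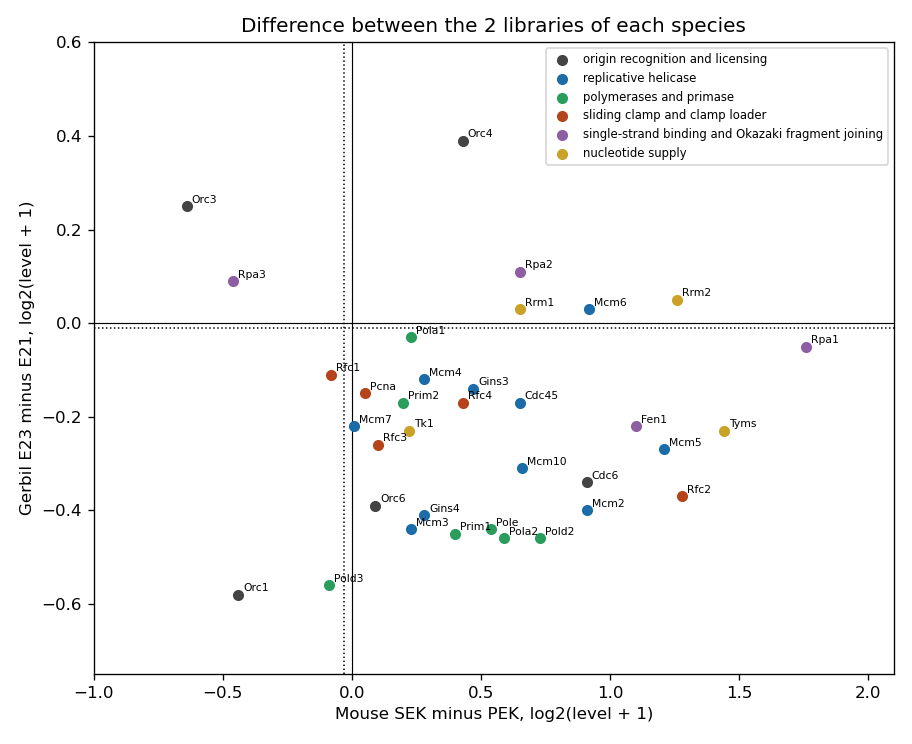
Difference between the mouse libraries (SEK minus PEK, horizontal) and between the gerbil libraries (E23 minus E21, vertical) for each measured member, both on the length-corrected log2(level + 1) scale and coloured by role; dotted lines are the medians over all genes (-0.03 and -0.01). Most points lie to the right of 0 and below 0, with Rpa1 farthest right (1.76) and Orc3 farthest left (-0.64).

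Other genes of the pathway were described from 3 lists. Of 39 other replication factors 35 were measured, and their median was -0.38. The calls were 2 for gerbil and 5 for mouse, which is 5.71% and 14.3% of the list beside the backgrounds of 13.5% and 15.0%. Without length correction the median was 0.57, near the 0.61 of all genes. There were then 10 calls for gerbil (background 29.4%) and 4 for mouse (12.2%). Those with the largest differences were Wdhd1, a fork scaffold (1.54 ± 0.23), Rnaseh2c and Rnaseh2a, subunits of the nuclease that removes RNA from DNA (-2.73 ± 0.56 and -2.27 ± 0.28), Shmt1, an enzyme of folate metabolism (-2.63 ± 0.29), and Exo1, an exonuclease (-2.22 ± 0.42, but -0.30 and not called without length correction). Donson, a replication fork factor, was at 1152 and 1631 in mouse and 42.9 and 39.1 in gerbil (-5.00 ± 0.22), but its mouse locus also overlaps Atp5o and Cryzl1 on the same strand and its level is uncertain. The locus of Rnaseh2a likewise overlaps Gm49661. On the other strand Prdx2 overlaps Rnaseh2a, Kat5 overlaps Rnaseh2c, Smcr8 overlaps Shmt1, and Son and Itsn1 overlap Donson. Between the mouse libraries 27 of these 35 genes were higher in SEK, beside the 47.9% of all genes given above, but 18 of 35 without length correction (all genes 39.0%), where the median was 0.09 in place of 0.40. In gerbil 26 of 35 were lower in E23 with and without the correction, beside 51.1% and 54.9% of all genes.

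Of 17 genes for E2F and retinoblastoma family regulators 13 were measured, and E2f5 (1.45 ± 0.26, but 0.92 and not called without length correction) and Lin52 (1.66 ± 0.20) were called higher in gerbil and none higher in mouse. The 2 calls were 15.4% of the 13 genes, beside the background of 13.5%. The median of the 13 was -0.22, or 0.92 without length correction. Higher in SEK were 7 of the 13 (53.8%), or 6 without length correction, beside 47.9% and 39.0% of all genes. E2f1, an activator of replication genes, was at 73.5, 74.6, 97.0 and 53.5 in PEK, SEK, E21 and E23 and was not called (-0.54 ± 0.38). Of 30 mitosis genes 29 were measured, with 5 calls for gerbil (17.2%), 3 for mouse (10.3%) and a median of 0.76 between the species. The backgrounds were 13.5% and 15.0%. Without length correction there were 14 calls for gerbil and 1 for mouse, beside backgrounds of 29.4% and 12.2%. The median was then 1.20, beside 0.61 for all genes. The largest differences were those of the motor genes Kif11 (2.24 ± 0.15) and Kif23 (1.83 ± 0.18), the proliferation marker Mki67 (2.02 ± 0.22) and the kinetochore gene Ndc80 (1.71 ± 0.18), all higher in gerbil, and of the centromere histone gene Cenpa (-2.60 ± 0.50) and Birc5 of the chromosomal passenger complex (-2.35 ± 0.77, but -1.65 and not called without length correction), both higher in mouse. Between the mouse libraries the mitosis genes had a median of 0.87, with 27 of 29 higher in SEK, and without length correction 0.32 with 21 of 29, beside 47.9% and 39.0% of all genes. In gerbil 23 of 29 (79.3%) were lower in E23 with a median of -0.17, beside 51.1% and -0.01 for all genes.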

How the data were processed

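RNA was sequenced from 2 mouse and 2 gerbil libraries. The submitters' processing notes list STAR 2.7.1a, RSEM 1.3.1, cutadapt 2.8 and, as builds, mm10 and GRCm38, with no role for each. A gerbil build was not given in the sources used here. Mouse values were deposited by the authors as FPKM per assembled locus (27632 rows) and gerbil values as TPM per gene (25745 rows). Counts and RPKM in 4 other gerbil columns were not used. The columns show the species but no sample number. The members and lists were chosen with earlier results of these data known.

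Symbols occurring once in each table, without LOC, Gm and Rik names, were matched (13322). Values were rescaled to 1000000, a pseudocount of 1 was added, and 10329 genes were kept that had a GENCODE M21 exon union length and a mean level of 1 or more. The trend of each library along length (the median distance from the mean of each gene, in 40 bins) was subtracted. Because the tables were normalized separately, calls use the 2-fold rule and no test. Every member may be named; library values are given for called members, those nearest to the call and the most abundant, and were given for the rest too; from the other lists up to 6 called genes are named, and E2f1 was added after its values were seen. The procedure was tested on simulated data with a known length trend. Those data do not hold the differences in unit and gene model between the species, so the test does not cover them. Python 3.11.15, numpy 2.4.6 and pandas 2.3.3 were used. Alternatives were no length correction, other pseudocounts, filters and bins, a GC correction, deposited values, leaving out each library and, chosen after seeing the data, median protein-coding transcript length. Whether the library names mark replicates is unknown, and p-values are therefore not given.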

Additional observations from a re-analysis of the deposited data

How the results depend on the processing

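The number of members called higher in gerbil (3 as reported) was 8 without length correction (29.4% of all genes), 1 with a GC content trend also removed (11.8%) and 0 with the deposited values (4.12%), and 3 to 7 when 1 library was left out (16.6% to 19.3%; 7 without SEK, with Mcm5, Gins3, Prim2 and Rrm1 gained). The number called higher in mouse (3) was 13 with the deposited values (41.1% of all genes) and 3 to 4 with 1 library left out (18.8% to 20.5%). The median species difference (0.28) was 0.68 without length correction and -1.19 with the deposited values (all genes -1.10). It was 0.05 with a GC content trend also removed and 0.13 with the median protein-coding transcript length. With 1 library left out it ran from -0.06 to 0.58, the lowest without PEK. The gerbil E23 minus E21 median (-0.22) was -0.36 with the deposited values. Of the called members, Rfc1 reversed without length correction (0.17) and Pcna with the deposited values (-0.16). Members not called changed sign too. Without length correction these were Orc4 (0.22), Pole (1.59), Cdc6 (0.89), Mcm10 (1.19), Mcm3 (0.35), Rfc4 (-0.60), Tk1 (-0.47), Rpa2 (-0.07) and Rpa3 (-1.49). With the deposited values Mcm2 (-0.83), Mcm5, Mcm6, Mcm7, Gins3, Cdc45, Orc3, Pola2, Prim1 and Prim2 turned from positive to negative. So did Pold3, Rfc4, Rpa1, Rpa2, Rpa3, Fen1, Rrm2 and Tk1. Rfc2 and Tyms were called under every alternative. With a pseudocount of 0.1 or 20 bins no member's call changed. A minimum of 10 in each species left out Orc1. With the median protein-coding transcript length Mcm4 was not called and Gins3 (1.80) and Pole (2.15) were called higher in gerbil. Without the filter on low values Gins4 (-1.54) and Rpa3 (-1.33) were called higher in mouse. The cause of these changes was not tested. The median over all genes also changed, from -0.01 as reported to 0.61 without length correction and -1.10 with the deposited values. Leaving out the length correction did not move all members the same way. Pola1 rose from 0.41 to 2.05, while Rpa3 fell from 0.02 to -1.49. No paired analysis was possible because the columns carry no sample number. With 2 libraries per species, unknown mouse depth and unexplained library names, the spread between libraries is the only error available. It was widest for Rpa1 (SE 0.88) and Tyms (SE 0.73).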
